A study of Mus musculus with 24 samples.

Results

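Akr1c18, Pik3c2g, Akr1d1, Fa2h, Acpp and Thrb are genes known from, or grouped with, the X-zone of the mouse adrenal gland, and they were read here by 9 probes on 24 one-colour Agilent arrays of adrenal RNA. The 6 genes are all those whose name in the array files equals one of these symbols, out of 19768 genes with a symbol that entered the test. They were chosen on these same arrays for reading low in the groups with androgen, so their levels by sex and hormone are given as a description with no test. Genotype was tested on the same arrays, and those p-values are not independent of the choice of genes.

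The study crossed genotype, sex and hormone in 8 groups of 3 arrays. Kcnk3 encodes TASK1, a potassium channel that is open at rest. Female Kcnk3 null mice were testosterone injected or sham treated, and so were female WT mice. Male Kcnk3 null mice were castrated or sham operated, and so were male WT mice. All are labelled C57BL/6, adrenal gland, 0.2 µg RNA per array. Ages, and whether an array held 1 animal or a pool, are not given in the sources used here, so the p-values measure the spread between these arrays.

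The X-zone is a layer of the mouse adrenal cortex next to the medulla, derived from the fetal cortex. In males it disappears at puberty under androgens, and in females it is known to last until the first pregnancy. Castration of males is known to bring it back, and testosterone to remove it in females. Akr1c18, a hydroxysteroid dehydrogenase that inactivates progesterone, and Pik3c2g, a class II phosphatidylinositol 3-kinase, are its usual marker genes. Akr1d1 is the steroid reductase that acts in bile acid synthesis in liver. Fa2h is the fatty acid hydroxylase that makes the hydroxylated fatty acids of myelin lipids, Acpp is the prostatic acid phosphatase, and Thrb is the beta receptor for thyroid hormone.

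The array probes are 60 bases long, and their last 30 bases are printed because the identity of a value rests on the probe that gave it. Positions are of mm9 and cover the whole probe. The files place the probe used for Akr1c18 at base 1090 of its transcript (chr13:4131895-4131954, minus strand). The Pik3c2g probes lie at base 6232 (chr6:139917743-139917802, plus strand) and at base 954 (chr6:139570930-139570989, plus strand) of the same transcript, 346813 bases apart in the genome. The Akr1d1 probe is at base 1996 (chr6:37518113-37518172, plus strand) and the Fa2h probe at base 2374 (chr8:113869096-113869155, minus strand). The Acpp probes belong to 2 transcripts, at base 4391 of the first (chr9:104190607-104190666, minus strand) and base 1777 of the second (chr9:104202160-104202219, minus strand). The Thrb probes are at bases 4280 (chr14:18868800-18868859, plus strand) and 4912 (chr14:18869432-18869491, plus strand) of one transcript. Exon and UTR borders of this build were not used here. Capitals mark AATAAA, the letters of a polyadenylation signal.
Akr1c18: taattcAATAAAttttgcttcttttctata
Pik3c2g, base 6232: gaggttctaaaAATAAAacatttaccatgt
Pik3c2g, base 954: agactccataccgaatagagagaaaagaag
Akr1d1: tgtaccataaaatcgtctgaagatggtgat
Fa2h: tgggataaatatacaaaactgcacttgtga
Acpp, base 4391: tttatcctgtgtcttcactgttttttaatc
Acpp, base 1777: aggctacaaaatcctctcagagaacaaaca
Thrb, base 4280: ttcaaatcaagtgtggacatggtggcagga
Thrb, base 4912: tttataaggctaaacctttctcatgaactt

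The letters AATAAA stood in the last 30 bases of 2 of these 9 probes and of 8.16% of all 55681 probes. In each gene with a second probe the one of higher mean signal stands for the gene, which is the probe listed first above. A level below is the log2 of the processed signal minus the 75th percentile of its array, so that 0 is the 75th percentile and 1 unit is a doubling. Levels of different probes are not compared with each other. A spot is called well above background by the scanner software.

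Before the results, 3 features of the arrays touch them. Kcnk3 read 5.63% to 69.0% of the same-sex WT sham mean on null arrays and 66.5% to 118% on WT arrays. The 69.0% is that of null sham male array 2, and array 1 of that group read 37.9%. Whether its probe lies in the deleted part is not given, so it does not check the labels. The Y-linked signal, in percent of WT sham males, was 25.4 and 45.5 on WT sham female arrays 2 and 3 and 32.9, 19.2 and 36.0 on the WT testosterone female arrays. Xist RNA, which coats an inactive X chromosome, was at 19.5% and 18.3% of the null sham female mean on null sham male arrays 1 and 2 and 17.4% and 58.0% on null castrated male arrays 1 and 2. These 9 arrays go against the sex on their label by at least 10%. Albumin, a liver gene, read 8.29 on null testosterone female array 1 and 7.38 on WT sham male array 3, against at most 1.25 on the others. All 8 markers of adrenal cortex and all 7 of the medulla were well above background on every array. Of 5 kidney markers, 1 to 3 were well above background on an array, and Umod was on none. The arrays lay on 4 slides. RNA integrity was 3 on the 2 arrays of the fourth slide, both WT female, and 5 to 9 on the others.

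No array read between -3.16 and 2.85 for Akr1c18, and arrays are called low or high by the side of this gap. Null sham female array 3, at 2.85, was intermediate, since the next of the high arrays read 5.83. It read -3.78, -3.23 and -3.16 in null testosterone females and 6.69, 6.02 and 2.85 in null sham females. WT females read 6.57, 5.83 and 6.75 with testosterone and 8.53, 8.37 and 7.05 with sham treatment. Null males read 7.79, 7.32 and 7.94 after castration and 6.51, 7.00 and -3.65 after sham surgery. WT males read 8.33, 8.35 and 7.82 after castration and -3.27, -3.97 and -3.56 after sham surgery. The 7 low arrays lay between -3.97 and -3.16, the 17 high arrays between 2.85 and 8.53, and all 24 were well above background. The low arrays were all WT sham males, all null testosterone females and a single null sham male. Castrated and sham WT males differed by 11.8 (SE 1.75), and WT sham females and WT sham males by 11.6 (SE 1.75).

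**Figure D1:**
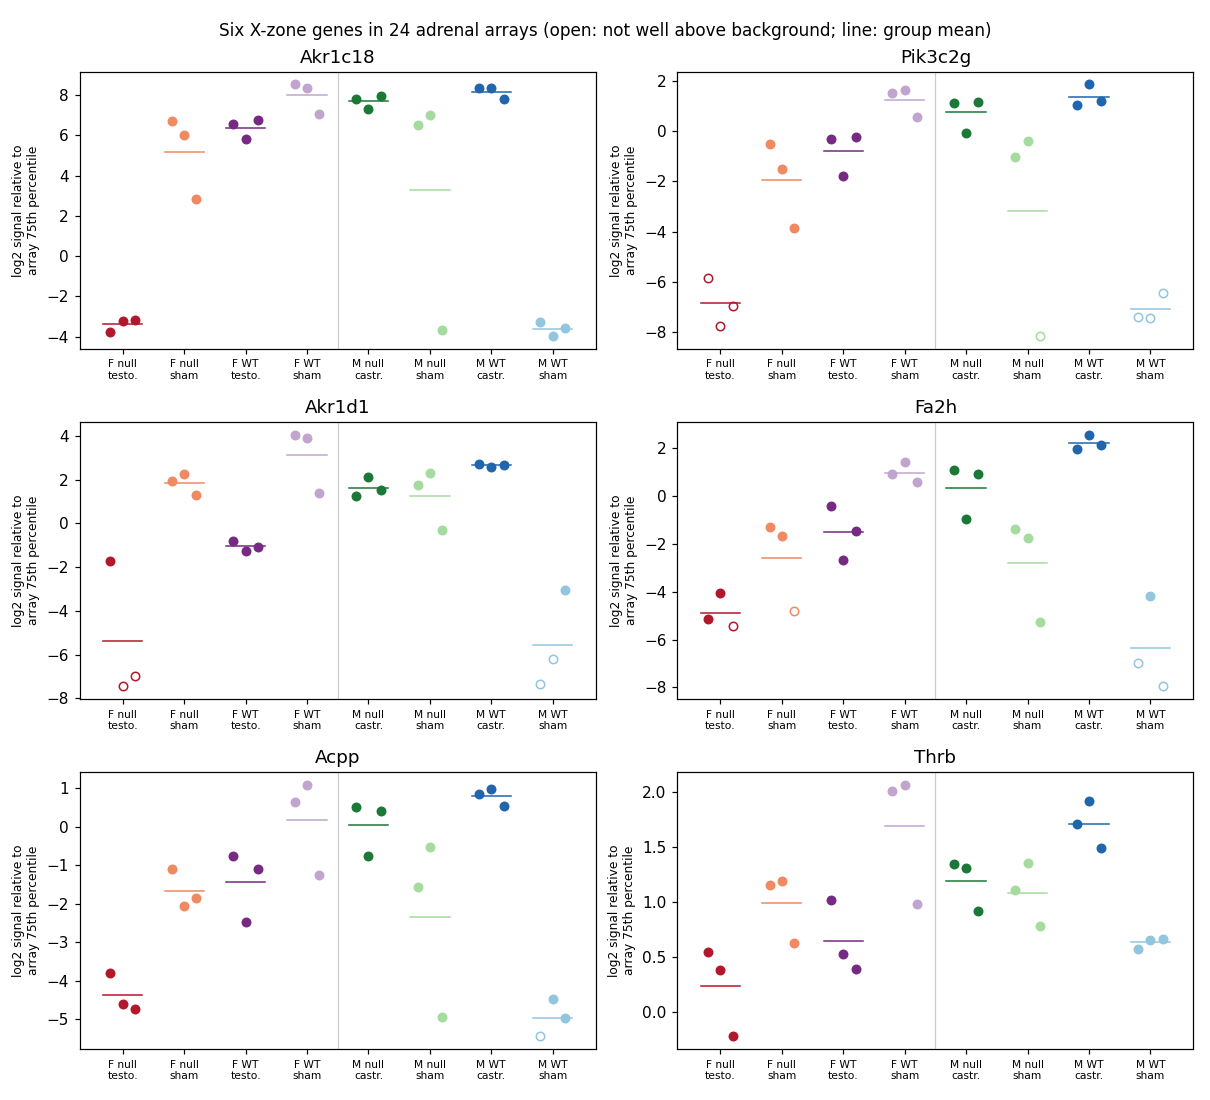
Log2 signal relative to the 75th percentile of the array (vertical axes) for the 6 genes in each of the 8 groups of 3 arrays, females left and males right. Points are arrays in replicate order, open where the spot was not well above background, and lines are group means. Null testosterone females and WT sham males lie at the bottom for Akr1c18, at -3.97 to -3.16, and a single null sham male array lies with them at -3.65.

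Pik3c2g was high and low in the same groups as Akr1c18. It read -5.85, -7.77 and -6.99 in null testosterone females and -0.52, -1.51 and -3.85 in null sham females. WT females read -0.30, -1.78 and -0.24 with testosterone and 1.52, 1.63 and 0.55 with sham treatment. None of the 3 arrays of null testosterone females was well above background, so these levels are bounds. Null males read 1.14, -0.06 and 1.18 after castration and -1.03, -0.37 and -8.17 after sham surgery, the last not above background. WT males read 1.03, 1.86 and 1.21 after castration and -7.40, -7.44 and -6.47 after sham surgery, where no array was above background. A bound sets the mean of the bright group against the lowest level among probes well above background on each dim array, spots of a probe averaged, or the probe's own signal where that is higher. By this measure Pik3c2g was at least 120-fold higher in castrated than in sham WT males. The lowest level on an array is not the detection limit of each probe. Fa2h on null sham female array 3 read -4.80 and was not well above background, with the lowest level of that array at -4.87. The bounds here and below are therefore approximate.

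Akr1d1 did not follow Akr1c18 everywhere. It read -1.73, -7.45 and -6.97 in null testosterone females and 1.92, 2.27 and 1.30 in null sham females. WT females read -0.82, -1.26 and -1.06 with testosterone, far under their 4.06, 3.89 and 1.39 with sham treatment. Null males read 1.23, 2.11 and 1.55 after castration and 1.73, 2.32 and -0.32 after sham surgery, so that their ranges overlapped. WT males read 2.72, 2.59 and 2.69 after castration and -7.36, -6.22 and -3.05 after sham surgery. In each of the 2 dim groups a single array was well above background, and it was the array with high albumin: -1.73 in null testosterone females and -3.05 in WT sham males. The part of liver RNA in these values was not tested.

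Fa2h read -5.13, -4.04 and -5.44 in null testosterone females and -1.28, -1.65 and -4.80 in null sham females. WT females read -0.40, -2.69 and -1.45 with testosterone and 0.93, 1.41 and 0.59 with sham treatment. Null males read 1.10, -0.97 and 0.92 after castration and -1.38, -1.77 and -5.25 after sham surgery, a complete separation. WT males read 1.97, 2.57 and 2.15 after castration and -6.96, -4.19 and -7.96 after sham surgery, where 1 array was well above background. Castrated WT males were the highest group for Fa2h and did not overlap WT sham females, from which they differed by 1.25 (SE 1.07).

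Acpp read -3.79, -4.61 and -4.74 in null testosterone females and -1.10, -2.05 and -1.85 in null sham females. WT females read -0.77, -2.48 and -1.09 with testosterone and 0.65, 1.09 and -1.24 with sham treatment. Null males read 0.50, -0.75 and 0.42 after castration and -1.58, -0.53 and -4.94 after sham surgery. WT males read 0.84, 0.98 and 0.54 after castration and -5.45, -4.48 and -4.97 after sham surgery. The third array of null sham males again lay among the WT sham males, as for Akr1c18.

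Thrb moved least. It read 0.55, 0.38 and -0.22 in null testosterone females and 1.16, 1.19 and 0.63 in null sham females. WT females read 1.02, 0.53 and 0.39 with testosterone and 2.01, 2.07 and 0.99 with sham treatment. Null males read 1.35, 1.31 and 0.92 after castration and 1.11, 1.36 and 0.79 after sham surgery. WT males read 1.71, 1.92 and 1.50 after castration and 0.58, 0.66 and 0.67 after sham surgery. All its spots were well above background, and its whole range over the 24 arrays was 2.29, against 6.54 for Acpp and 10.04 to 12.5 for the other members.

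Ordered by group mean, castrated WT males came first for 5 members and WT sham females for Akr1d1. WT sham males had the lowest mean for 5 members and null testosterone females for Thrb. In these 2 groups Pik3c2g was not above background on any array and Akr1d1 on 1 of 3, so for both genes the groups have no order between them. For Akr1c18, Pik3c2g (with that exception), Fa2h and Acpp the same order ran through all 8 groups: castrated WT males, WT sham females, null castrated males, WT testosterone females, null sham females, null sham males, null testosterone females, WT sham males. Neighbours in that order overlapped in their range, apart from the step between null castrated males and WT testosterone females (Akr1c18, Pik3c2g and Acpp) and that between castrated WT males and WT sham females (Fa2h). For Akr1d1 the steps without overlap set castrated WT males above null sham females, null sham males above WT testosterone females, and these above null testosterone females. For Thrb only the last step, between WT sham males and null testosterone females, was without overlap. The widest spread within a group was that of null sham males for Akr1c18 (3.29 ± 6.01, SD, n = 3), Pik3c2g (-3.19 ± 4.33), Fa2h (-2.80 ± 2.13) and Acpp (-2.35 ± 2.30).

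In WT males the members stood apart by castration without exception. All 6 read higher in castrated than in sham WT males with no overlap, beside 7.99% of all 31075 features. The differences were 11.8 for Akr1c18, 8.60 for Fa2h (SE 1.07), 8.21 for Akr1d1 (SE 1.20), 5.75 for Acpp (SE 0.81) and 1.07 for Thrb (SE 0.27). All 6 also read higher in WT sham females than in WT sham males with no overlap, beside 8.23% of all features. Because the genes were chosen for this pattern, nothing is read from these counts. In bulk RNA, fewer cells of a type and less RNA per cell cannot be told apart.

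In null males the pattern was uneven. Akr1c18, Pik3c2g and Fa2h, 3 of the 6, read higher in castrated than in sham null males with no overlap, beside 11.4% of all features. The differences were 4.39 for Akr1c18 (SE 1.75), 3.95 for Pik3c2g (SE 1.35) and 3.15 for Fa2h (SE 1.07), with 2.40 for Acpp (SE 0.81), 0.38 for Akr1d1 (SE 1.20) and 0.11 for Thrb (SE 0.27). For Akr1c18 the difference was 1.28 on slide 1, 0.32 on slide 2 and 11.59 on slide 3. For Akr1c18 null sham males thus read nearer to castrated ones on slides 1 and 2 than on slide 3. Xist on slides 1, 2 and 3 was 19.5%, 18.3% and 6.08% on the sham arrays and 17.4%, 58.0% and 4.15% on the castrated arrays. On slide 1 the other members differed by 2.17 (Pik3c2g), 2.48 (Fa2h), 2.08 (Acpp), -0.50 (Akr1d1) and 0.23 (Thrb). In the same order the differences were 0.31, 0.80, -0.22, -0.21 and -0.05 on slide 2. They were 9.36, 6.17, 5.36, 1.87 and 0.13 on slide 3, where the sham array of Pik3c2g was not above background. The part of the Xist signal in these values was not tested. Sham null females and sham null males overlapped in all 6 members, so 0 of 6 read higher without overlap, beside 10.9% of all features.

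In females, testosterone went with lower levels of all members in both genotypes. Null testosterone females read lower than null sham females with no overlap in 5 of the 6, beside 5.97% of all features. The differences were -8.58 for Akr1c18 (SE 1.75), -7.21 for Akr1d1 (SE 1.20), -2.71 for Acpp (SE 0.81), -2.30 for Fa2h (SE 1.07), which overlapped, and -0.76 for Thrb (SE 0.27), and Pik3c2g was at least 11.6-fold lower. WT testosterone females read lower than WT sham females with no overlap in 4 of the 6, beside 4.19% of all features. The difference was largest for Akr1d1 (-4.16, SE 1.20), and it was -1.60 for Akr1c18 (SE 1.75), -2.005 for Pik3c2g (SE 1.35), -2.49 for Fa2h (SE 1.07), -1.61 for Acpp (SE 0.81) and -1.04 for Thrb (SE 0.27). On the slides that held both WT groups the Akr1c18 difference was -1.95, -2.54 and -0.30, and that of Akr1d1 was -4.87, -5.15 and -2.46.

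The WT testosterone female arrays carried Y-linked signal, and its size stood close to that of the marker genes. Set against the castrated WT male mean as 100%, Akr1c18 read 32.7, 19.5 and 37.0 on these 3 arrays, beside 28.6, 17.5 and 30.3 for the Y-linked gene Ddx3y and 30.1, 16.9 and 33.8 for Eif2s3y. Pik3c2g read 30.4%, 10.9% and 31.9% and Acpp 33.7%, 10.3% and 27.0%. In all 5 of these measures the second array was the lowest. Thrb, at 61.5%, 43.8% and 39.9%, was lowest on the third. Fa2h was lower at 15.9%, 3.25% and 7.67%, and Akr1d1 at 8.94%, 6.56% and 7.53%. In null testosterone females, whose Ddx3y was at 0.0890% to 0.172%, Akr1c18 read 0.0250%, 0.0366% and 0.0383%. On WT sham female arrays 1, 2 and 3 the 2 did not run together, with Ddx3y at 0.845%, 27.5% and 33.5% and Akr1c18 at 127%, 113% and 45.6%. What the male signal contributes to the WT levels was not tested.

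**Figure D2:**
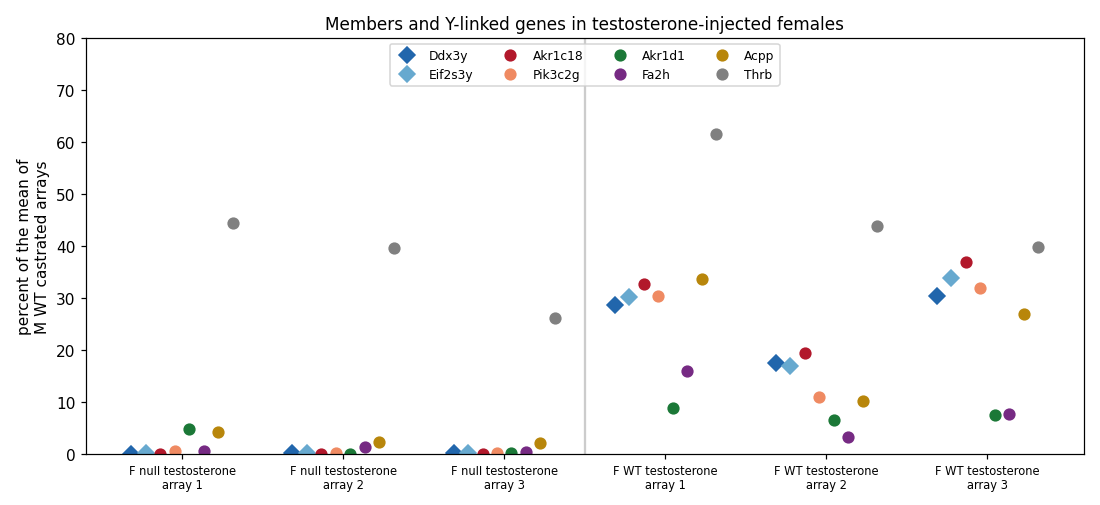
Signal in percent of the castrated WT male mean (vertical axis) on the 6 arrays of testosterone-injected females, null left and WT right. Diamonds are the Y-linked genes Ddx3y and Eif2s3y and circles the 6 members. On the WT arrays Akr1c18 lay at 32.7%, 19.5% and 37.0% and Ddx3y at 28.6%, 17.5% and 30.3%.

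In null sham males the distance of Akr1c18 from the Xist signal depended on the reference group taken for Akr1c18. Arrays 1 and 2 had Akr1c18 at 156% and 219% of the null sham female mean, with Xist at 19.5% and 18.3% of that mean. Against the WT sham females, which were brighter, Akr1c18 on the same arrays was at 32.8% and 46.3% of the mean. Against castrated WT males it was at 31.3% and 44.1%. The levels of 6.51 and 7.00 lay just under the lowest WT sham female array at 7.05. Array 3 had Xist at 6.08% and Akr1c18 at 0.136% of the null sham female mean, next to 0.109% to 0.177% in WT sham males. Akr1d1 on array 3 stood at 21.7% of the null sham female mean, above the 0.165% to 3.27% of WT sham males.

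Genotype was tested in each sex and treatment by limma over all 31075 features. The shares of all features printed beside the calls are for adjusted p. Counts below at an unadjusted p under 0.05 have no such share beside them, and nothing is read from them. Low levels in WT sham males and in null testosterone females are part of what chose the genes, so the tests in sham males and in testosterone females are no independent evidence, and nothing is read from their counts. The only member called was Akr1d1 in sham males, where the null arrays stood above the WT arrays. Its mean was 1.24 ± 1.38 in null and -5.54 ± 2.23 in WT sham males (SD, n = 3 each), a difference of 6.79 (SE 1.20, adjusted p = 0.0411), and all 3 null arrays were above all 3 WT arrays. Only 1 of the 3 WT arrays was well above background, so the size is in part a distance to background. It was 1 of 6 members called, beside 0.0837% of all features. On slides 1, 2 and 3 the difference was 9.09, 8.53 and 2.73. It was 8.03 (SE 0.72, adjusted p = 0.00017) without the 2 arrays with high albumin, and 5.22 (SE 2.01, adjusted p = 1.00) without the arrays of opposite-sex signal, which leaves 1 null sham male array, taken to vary like the others. It missed the threshold without a filter on dim probes (adjusted p = 0.0508), when the slide entered the fit as a block (adjusted p = 0.0581), and when any of null arrays 1 and 2 or WT arrays 1 and 2 was left out (adjusted p from 0.233 to 0.324).

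The other members of sham males had the same direction and did not pass. Akr1c18 differed by 6.89 (SE 1.75, adjusted p = 0.442), Fa2h by 3.57 (SE 1.07, adjusted p = 0.781), Acpp by 2.62 (SE 0.81, adjusted p = 0.822) and Thrb by 0.45 (SE 0.27, adjusted p = 0.999). Pik3c2g was well above background on 2 of 3 null and 0 of 3 WT arrays (adjusted p = 0.999), and no size is given. Akr1d1 and Thrb, 2 of the 6, were higher in null males with no overlap, beside 6.86% of all features. For Akr1c18, Pik3c2g and Acpp the result turned on the third null array. On slides 1, 2 and 3 the Akr1c18 difference was 9.78, 10.98 and -0.09, and without that array 4 members were called: Akr1c18 (10.4, adjusted p = 2.6e-06), Pik3c2g (adjusted p = 0.000932), Acpp (3.91, adjusted p = 0.0142) and Akr1d1 (7.57, adjusted p = 0.0285). Fa2h differed by 5.58, 2.42 and 2.70 on the slides and stayed uncalled without that array (adjusted p = 0.16). Without the arrays of opposite-sex signal the Akr1c18 difference was -0.047.

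In testosterone-injected females all 6 members were lower in null than in WT arrays, and 0 of 6 were called by limma, beside 0.0354% of all features, with 5 of 6 at an unadjusted p under 0.05. Akr1c18 averaged -3.39 ± 0.34 in null and 6.38 ± 0.49 in WT arrays (SD, n = 3 each), a difference of -9.78 (SE 1.75, adjusted p = 0.06), with -10.36 on slide 1 and -9.06 on slide 2. As for every member, the SE rests on a spread pooled over all 8 groups and not on the 2 compared. The SD of Akr1c18 within a group ran from 0.30 to 6.01, the widest in null sham males. Akr1c18 passed under 4 alternatives, with limma adjusted p from 0.0286 to 0.0476. These were normexp with quantile normalization, the deposited value table, every probe as its own feature, and the replicate block. Pik3c2g was at least 26.3-fold lower in null arrays (adjusted p = 0.148). Akr1d1 differed by -4.33 (SE 1.20, adjusted p = 0.236), Acpp by -2.93 (SE 0.81, adjusted p = 0.236), Fa2h by -3.36 (SE 1.07, adjusted p = 0.327) and Thrb by -0.41 (SE 0.27, adjusted p = 0.816). All but Thrb, 5 of the 6, had no overlap between the groups, beside 5.37% of all features. Without null array 1, which had high albumin, Akr1d1 differed by -6.16 (adjusted p = 0.0362). All 3 WT arrays of this comparison carried the Y-linked signal described above, so that no value without it could be had.

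In sham females all 6 members were lower in null arrays as well, and 0 of 6 were called by limma, beside 0.486% of all features, with 4 of 6 at an unadjusted p under 0.05. Fa2h averaged -2.58 ± 1.93 in null and 0.98 ± 0.41 in WT arrays (SD, n = 3 each), a difference of -3.55 (SE 1.07, adjusted p = 0.184). It passed with normexp and quantile normalization (adjusted p = 0.019) and in the deposited value table (adjusted p = 0.0253). Pik3c2g differed by -3.19 (SE 1.35, adjusted p = 0.437), Akr1c18 by -2.80 (SE 1.75, adjusted p = 0.695), Acpp by -1.83 (SE 0.81, adjusted p = 0.471), Akr1d1 by -1.28 (SE 1.20, adjusted p = 0.847) and Thrb by -0.70 (SE 0.27, adjusted p = 0.375). Akr1c18, Pik3c2g and Fa2h, 3 of the 6, were lower in null females with no overlap, beside 6.52% of all features. Akr1c18 differed by -1.84 on slide 1 and -2.35 on slide 2, and by -1.63 without null array 3. Akr1d1 differed by -2.14 without WT array 3 and by -0.81 without WT array 1. The third null array was the lowest of its group for Akr1c18, Pik3c2g and Fa2h, at 2.85, -3.85 and -4.80, and also for Akr1d1 and Thrb, at 1.30 and 0.63, but not for Acpp.

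In castrated males the difference between genotypes was the smallest of the 4 comparisons for every member but Thrb. All 6 members were lower in null arrays, by 0.48 for Akr1c18 to 1.88 for Fa2h on the log2 scale, and 0 of 6 were called by limma, beside 0.698% of all features, with 0 of 6 at an unadjusted p under 0.05. Akr1c18 differed by -0.48 (SE 1.75, adjusted p = 1.00), Pik3c2g by -0.61 (SE 1.35, adjusted p = 1.00), Akr1d1 by -1.04 (SE 1.20, adjusted p = 1.00), Fa2h by -1.88 (SE 1.07, adjusted p = 0.864), Acpp by -0.73 (SE 0.81, adjusted p = 1.00) and Thrb by -0.52 (SE 0.27, adjusted p = 0.798). Akr1d1, Fa2h, Acpp and Thrb, 4 of the 6, were lower in null males with no overlap, beside 8.24% of all features. Akr1c18 differed by -0.54, -1.03 and 0.12 on slides 1, 2 and 3, and Fa2h by -0.86, -3.54 and -1.23. Null array 2, with Xist at 58.0%, was the lowest of its group for Akr1c18, Pik3c2g, Fa2h and Acpp and the highest for Akr1d1.

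**Figure D3:**
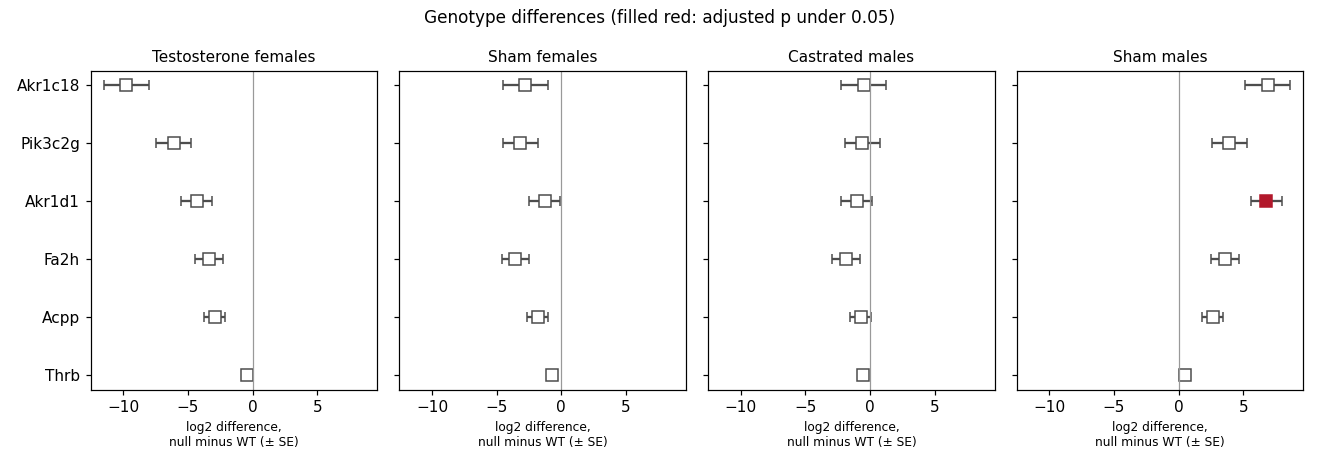
Log2 difference of null minus WT arrays with its SE (horizontal axes) for the 6 members in the 4 comparisons of genotype, 3 arrays against 3. The filled mark is Akr1d1 in sham males, the only call (6.79, adjusted p = 0.0411); the differences of Akr1c18 are -9.78 in testosterone females and 6.89 in sham males.

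The difference between genotypes in the hormone response was fitted as an interaction. It contains the WT hormone response for which the genes were chosen, so it is given as a description and nothing is read from its counts. For castration 0 of 6 members were called by limma, beside 0.0805% of all features. At an unadjusted limma p under 0.05 there were 6 of 6, with no share of all features at that threshold to set beside them. The null minus WT responses were -7.82 for Akr1d1 (SE 1.70), -7.37 for Akr1c18 (SE 2.47), -5.45 for Fa2h (SE 1.51), -3.35 for Acpp (SE 1.15) and -0.97 for Thrb (SE 0.39). The value of Akr1c18 was -10.8 without null sham array 3 and -0.18 without the arrays of opposite-sex signal, and that of Akr1d1 was -6.34 without those 9 arrays. For testosterone 0 of 6 were called by limma, beside 0.0965% of all features, with 1 of 6 at an unadjusted p under 0.05. Akr1c18 had the largest value (-6.98, SE 2.47). No size is given for Pik3c2g in either interaction, since a group in each was not above background.

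The comparisons share arrays. Genotype in sham males and castration in WT males rest on the same WT sham males, and genotype in testosterone females and testosterone in WT females on the same WT testosterone females. The medians over the 6 members were -3.85 for genotype in testosterone females, -2.31 in sham females, -0.67 in castrated males and 3.74 in sham males, beside medians over all features of -0.02, -0.03, -0.01 and -0.04. Those of testosterone females and sham males are in part distances to background. Their middle members, Akr1d1 and Fa2h in the first and Fa2h and Pik3c2g in the second, were not above background on some or all dim arrays.

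The second probes split the genes. The Thrb probe at base 4912 followed the first over the 24 arrays (r = 0.964), with 0.15 ± 0.23 in castrated and -0.97 ± 0.04 in sham WT males (SD, n = 3 each), a difference of 1.13 beside 1.07 from the first. The Acpp probe at base 1777, for the other transcript, was not well above background on any array, reading -7.99 to -6.81, and it was the only probe of the 9 that failed the filter. Acpp values here are therefore those of the transcript read at base 4391. The Pik3c2g probe at base 954 did not follow the probe at base 6232 (r = -0.12). It was well above background on 4 arrays: null testosterone female array 1 (-5.25), WT testosterone female array 1 (-3.61), castrated WT male array 3 (-5.57) and WT sham male array 3 (-4.61). The first and last of these are the 2 arrays with high albumin. On the castrated WT males and WT sham females, where the probe at base 6232 read 0.55 to 1.86, it was well above background on 1 of 6.

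**Figure D4:**
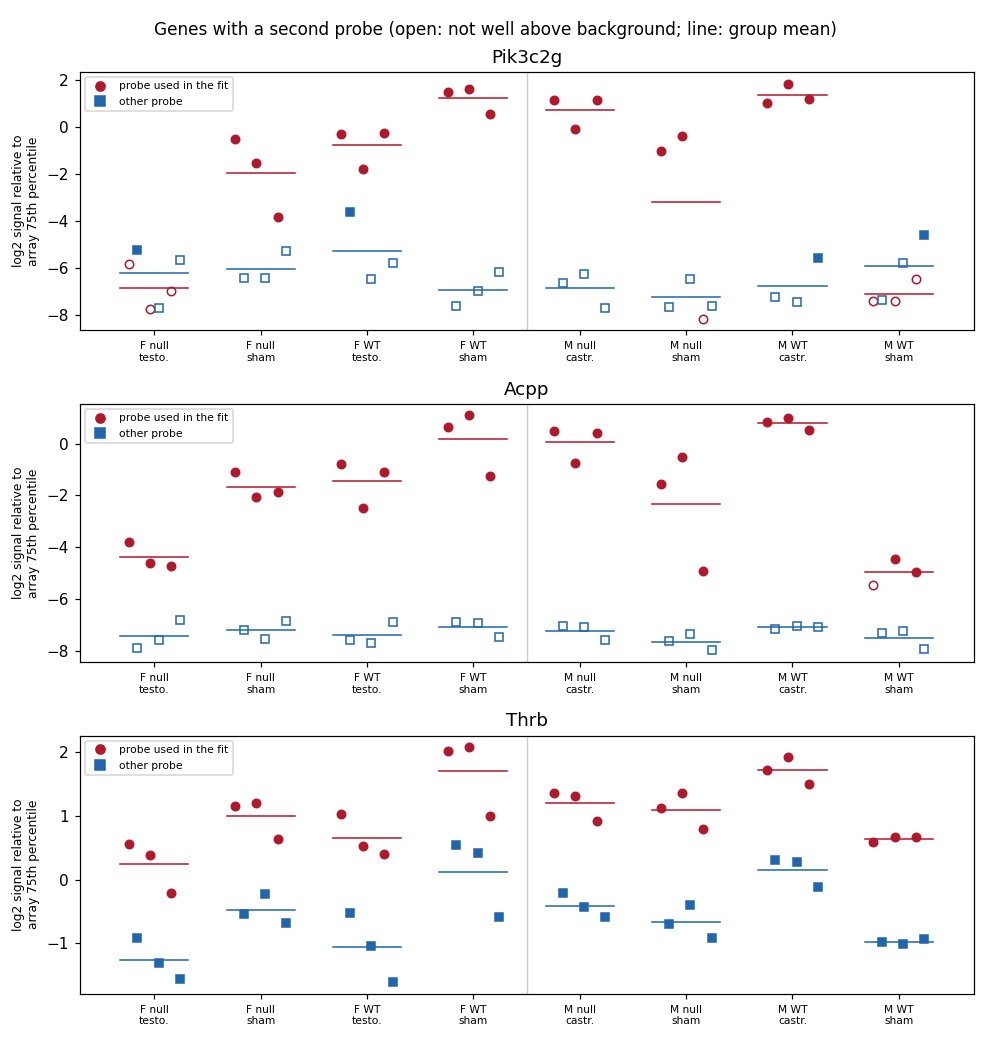
Log2 signal relative to the 75th percentile of the array (vertical axes) for the genes with 2 probes, in the 8 groups of 3 arrays. Circles are the probe used in the fit, squares the other, open where not well above background, and lines are group means. The squares follow the circles for Thrb and stay at -7.99 to -6.81 for Acpp.

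The windows before the transcript starts were searched in the RefSeq promoter table (GRCm38.p6). It matched 5 of the 6 members in 7 windows: Akr1c18, Akr1d1 and Acpp with 1 each, and Pik3c2g and Thrb with 2. The search covered the 250 bases before the start for AGAACA, the half-site of androgen and glucocorticoid receptors, and AAGGTCA, the half-site of the adrenal factor SF-1, on both strands, and for TATAAA on the gene strand. These occurred in 16.0%, 4.09% and 7.55% of 32544 distinct windows. Of the 7 member windows only the second of Thrb held any, with AGAACA 7 bases and its reverse complement TGTTCT 23 bases before the start, and TATAAA 167 bases before. It is printed with that of Akr1c18, the member of widest range, with matches in capitals. Both are given on the gene strand, the first at chr13:4150647-4150896 (minus) and the second at chr14:17981394-17981643 (plus).
Akr1c18: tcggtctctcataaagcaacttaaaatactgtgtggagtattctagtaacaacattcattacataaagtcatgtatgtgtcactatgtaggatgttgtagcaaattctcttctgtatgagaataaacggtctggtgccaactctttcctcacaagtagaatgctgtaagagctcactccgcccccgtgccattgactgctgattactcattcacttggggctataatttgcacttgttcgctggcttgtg
Thrb, second start: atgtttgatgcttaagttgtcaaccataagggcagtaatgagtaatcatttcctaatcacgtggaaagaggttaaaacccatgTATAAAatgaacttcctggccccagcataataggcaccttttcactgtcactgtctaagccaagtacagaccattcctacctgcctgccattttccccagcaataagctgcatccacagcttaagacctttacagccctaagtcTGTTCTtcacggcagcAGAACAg

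A match is only a run of letters. The Akr1c18 window had 41.6% G and C, the Thrb window 44.0%, and the median of all windows was 52.4%.

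Over the 24 arrays the members resembled each other to different degrees, measured by Pearson's r of the log2 levels and given with no test. The arrays share their RNA and fall into 2 sets on Akr1c18, so r is given also within the 17 high arrays. Akr1c18 and Pik3c2g were closest, with r = 0.982 over all arrays and 0.967 within the 17. Pik3c2g and Fa2h had 0.921 and 0.954, and Pik3c2g and Acpp 0.970 and 0.876. Akr1d1 was closer to Thrb within the 17 arrays (0.858) than to Akr1c18 (0.472), Pik3c2g (0.469) or Fa2h (0.477). Thrb and Akr1c18 had 0.714 and 0.706.

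**Figure D5:**
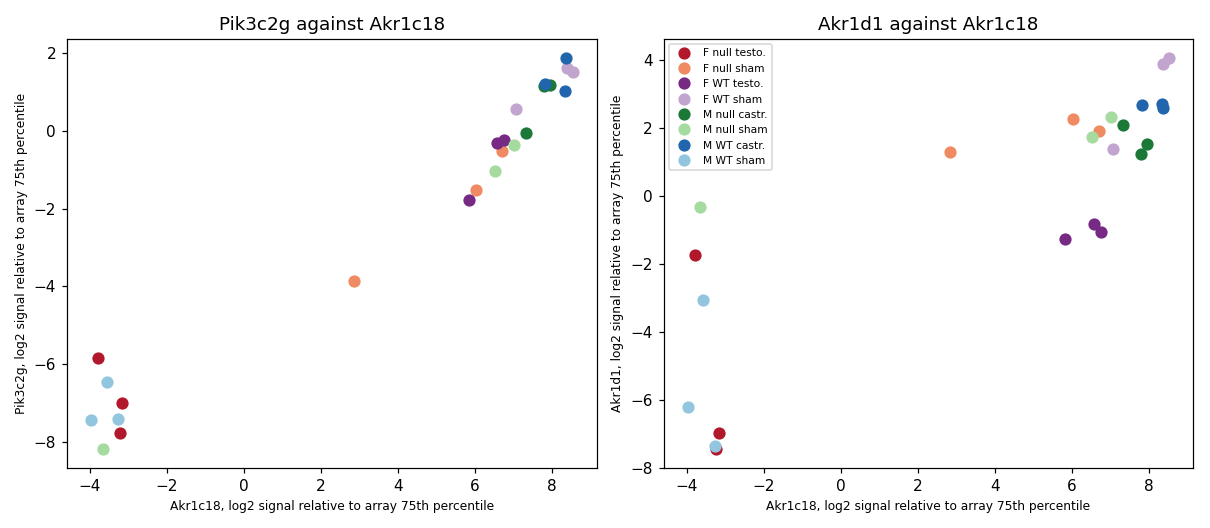
Log2 level of Pik3c2g (left) and Akr1d1 (right) against that of Akr1c18 on the 24 arrays, each relative to the 75th percentile of its array and coloured by group. Pik3c2g follows Akr1c18 along a line within the 17 high arrays (r = 0.967), while Akr1d1 of the WT testosterone females lies at -1.26 to -0.82, under the other high arrays.

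Among the 30851 features with a value on every array, the genes most like the members were in part shared. Nrep, the neuronal regeneration related protein, was among the 5 most alike of Akr1c18 (r = 0.926), Pik3c2g (0.940), Akr1d1 (0.906), Fa2h (0.918) and Acpp (0.961). Fndc5, the precursor of irisin, was listed for Akr1c18 (0.910), Pik3c2g (0.944), Fa2h (0.937) and Acpp (0.965), and Cst8, a cystatin, for Akr1c18 (0.915), Akr1d1 (0.912) and Acpp (0.947). Akr1d1 was most like Cyp2f2, a cytochrome P450, at 0.939 and 0.933 within the 17 high arrays, and Oxtr, the oxytocin receptor, at 0.928 and 0.900, with Vnn3 at 0.912. The remaining names were Olah for Fa2h (0.918) and Lratd1 for Acpp (0.954). Thrb had names of its own: Cd1d2 (0.922), Gpt2 (0.921), Tmem185a (0.920), Acadsb (0.914) and Prr16 (0.908).

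Genes of the pathways around these members were counted in the same tests. Of 22 measured steroid reductases and dehydrogenases related to Akr1c18 and Akr1d1, 16 phosphatidylinositol kinases and lipid phosphatases, 23 genes of fatty acid hydroxylation and sphingolipid synthesis, and 9 of androgen receptor and its responsive genes, 0 were called by limma in any of the 6 tested comparisons, with 50 of 420 pairs of gene and comparison at an unadjusted p under 0.05. The list around Acpp held acid phosphatases together with Nt5e and Tm4sf1, and 7 of its genes were measured. Among them Pxylp1, a phosphatase of proteoglycan synthesis, rose in null sham females (2.18, SE 0.30, limma adjusted p = 0.00112) and in null castrated males (1.57, SE 0.30, adjusted p = 0.0128). Its testosterone response differed between genotypes (-2.32, SE 0.42, adjusted p = 0.0375). Of 20 genes of thyroid hormone reception, transport and response, Crym, a thyroid hormone binding protein, fell in null castrated males (-2.28, SE 0.40, adjusted p = 0.00707). Of 12 measured genes listed around progesterone, LH and activin signals and other nuclear receptors, Nr0b1, the repressor DAX1, rose in null sham females (1.42, SE 0.28, adjusted p = 0.0273). List medians in the 4 genotype comparisons lay between -0.54 and 0.24, both from the androgen receptor list.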

How the data were processed

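The deposited scanner files hold spot intensities from Agilent Feature Extraction 10.7.3.1, whose processed signal is already background subtracted, per the file headers. The deposited value table holds log2 values; from its values it was quantile normalized by the authors, and its background handling is not stated. Here log2 of the processed signal minus the 75th percentile of each array was used, without outlier spots. Of 55681 probes, 26413 were named by accession, 4594 by symbol and 2793 from the file.

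Probes well above background on at least 3 of 24 arrays were kept (36832), with the probe of highest mean per symbol (31075 features). Differences were fitted in R 4.3.3 with limma 3.58.1 on 8 group means (16 residual degrees of freedom, prior 2.24), with Benjamini-Hochberg adjustment over all features and calls under 0.05. Tables were made with pandas 2.3.3 and numpy 2.4.6 in Python 3.11.15 and with the R package data.table, version 1.17.8, and figures with matplotlib 3.10.9. Between 57.0% and 64.7% of spots lay well above background, no spot outside the controls was saturated, and 3 arrays per group limit the precision.

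The members and all gene lists were chosen with earlier results of these data known. Named genes are the members, the 5 most alike of each with predicted and clone symbols skipped, and called genes of the 7 pathway lists. Replicate numbers were not treated as pairs in the main fit. Deviations of same-numbered arrays from their group means correlated by 0.226 on average and by -0.354 at the lowest. A part shared by number or slide was thus not removed from the main fit, and fits with either as a block are given below. On simulated data for null against WT sham females (30851 features) the fit recovered 27 of 100 changes of log2 1 and 73 of 100 of log2 2, and called 4 unchanged features. The simulated arrays were independent, and each feature had the same spread in all groups. These counts therefore do not carry over to members whose spread differs between groups.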

Additional observations from a re-analysis of the deposited data

Results flagged for a closer look

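Akr1d1 moved in opposite directions with genotype in 2 settings, and so did the mean differences of all 6 members. Those of Akr1c18 were larger than those of Akr1d1 in both settings. Low levels in WT sham males and in null testosterone females are part of what chose the genes, so this reversal is no independent evidence. For Akr1d1 in sham males all 3 null arrays lay above all 3 WT arrays (difference 6.79, limma adjusted p = 0.0411). In testosterone-injected females all 3 null arrays lay below all 3 WT arrays for Akr1d1 (difference -4.33, limma adjusted p = 0.236). The 2 fitted differences are 11.1 apart on the log2 scale, and the gap itself was not tested. In the dim group of each, 1 of 3 arrays was well above background, so 11.1 is in part a distance to background. Each comparison holds 1 array with high albumin and arrays with opposite-sex signal, 2 null males in the first and 3 WT females in the second, and their part was not tested.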

How the results depend on the processing

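Counts of called members moved by at most 1 outside the omission of single arrays. Normexp with quantile normalization and the deposited value table each called 1 member in sham females (0 in the main fit), 1 in testosterone females (0) and 1 in the castration interaction (0). Leaving out the 2 arrays with high albumin called 1 in testosterone females and 1 in the castration interaction, and every probe as its own feature 1 in testosterone females. The call in sham males (1) went to 0 with no filter, with slide as a block and without the arrays of opposite-sex signal. The cause of these changes was not tested, and the last setting also has smaller groups. With the replicate number as a block, which for replicates 1 and 2 is the slide, 1 member was called in testosterone females and no other count changed. Omission of single arrays gave 0 to 4 in sham males, 0 to 1 in testosterone females and 0 to 3 in the castration interaction, the highest for sham males and the interaction without null sham array 3. It also called 0 in castrated males, sham females and the testosterone interaction.

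The mean difference over the 6 members moved by more than 1.15, the SD between arrays, in a few settings. For castrated against sham WT males it was 7.31, and 5.26 with normexp and 5.70 in the deposited table. For WT sham females against males it was 7.02, and 4.92 and 5.32. For WT testosterone females against sham males it was 4.87, and 2.98 and 3.33. For null testosterone against sham females it was -4.41, and -2.93 and -3.21. Without the arrays of opposite-sex signal it was 5.75 for null castrated against sham males (2.40 in the main fit; 0.83 to 3.29 over single omissions), 3.89 for null sham females against males (0.75; -0.81 to 1.65), and -0.52 for null testosterone females against sham males (-3.66; -5.22 to -2.76). The omission behind 0.83, -0.81 and -5.22 is that of null sham male array 3.

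Signs turned only for uncalled members. Without the arrays of opposite-sex signal the sham male difference was -0.047 for Akr1c18, and the fitted value for Pik3c2g, read from background in WT, was -1.07 there and 0.89 in the castration interaction. The testosterone interaction of Fa2h (0.19) ran from -0.92 to 0.84 over single omissions. Arrays not above background limit Pik3c2g, Akr1d1 and Fa2h in WT sham males and null testosterone females.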
